A study of Mus musculus with 8 samples.

Results

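The genes described here build cilia, the antenna-like organelles that project from most cells, and the axoneme, their microtubule core. They were chosen by name: every gene of the deposited table whose symbol begins with Ift, Bbs, Tekt, Dnah, Dnaic or Dnali in the forms used for intraflagellar transport, Bardet-Biedl syndrome, tektin and axonemal dynein genes, together with Mns1, Arl13b, Foxj1 and Rfx3. This gave 33 of 23366 genes: 13 transport genes, 8 Bardet-Biedl genes, 5 tektins, 3 axonemal dynein genes and the 4 genes named singly. No symbol of the form Dnah plus a number was found, since the table writes the dynein heavy chains as Dnahc. Mns1 is in the set because its level was already known to be lower in bottom, so its values are given as a description with no test. The other members were not picked one by one by their values. Their families were, however, chosen with earlier results of these data known.

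The RNA came from sorted cells that the labels call beta cells, the insulin makers of the islet, of NOD mice of 8 to 10 weeks of age, an inbred strain that develops autoimmune diabetes. The labels name a top and a bottom population without saying what separated them, and give no sex, genotype other than the strain, or treatment. Each population had 4 libraries from about 1000 cells each, with replicates 1 and 2 in batch 1 and replicates 3 and 4 in batch 2. Whether different animals gave the libraries is not stated, and the p-values therefore speak only of library-to-library spread, which may be technical.

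A primary cilium is built by intraflagellar transport, in which trains of IFT-B and IFT-A protein complexes are carried outward by kinesin-2 and back by dynein-2. The BBSome is a coat that moves receptors in and out of the ciliary membrane. Islet beta cells carry a single primary cilium, a kind commonly classed as non-motile. Dynein arms, radial spokes and tektin filaments are best known from beating cilia and sperm tails. Whether the cilia of these cells held such parts was not measured. RFX transcription factors switch on genes of both kinds of cilium, and Foxj1 those of motile cilia.

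The libraries held 6657623 to 11262361 counts after rounding. Summed beta cell markers stood at 344012 to 505634 CPM (counts per 1000000 counts, after TMM scaling) in top and 38729 to 81375 CPM in bottom. Of 9 tested markers, 3 were called lower, and Mafa was at 0 counts in all libraries. In this paragraph, lower and higher count genes called at an adjusted p under 0.05 (edgeR quasi-likelihood test). Of all tested genes, 0.444% were called in either direction. Markers not called may still differ in level. Summed delta cell markers stood at 2658 to 5308 CPM in top and 33573 to 57863 CPM in bottom, with 4 of 5 tested higher. Pancreatic polypeptide and epsilon cell markers ran from 1344 to 2517 CPM in top and from 11483 to 92138 CPM in bottom, with 2 of 3 tested higher. Alpha cell markers ran from 65552 to 138425 CPM in top and from 29159 to 142477 CPM in bottom, with 0 of 8 tested called. In bottom 1, sums not scaled for gene length were 38729 CPM for beta, 51302 for alpha, 52734 for delta and 77181 for pancreatic polypeptide and epsilon markers, and in bottom 2 they were 81375, 142477, 57863 and 92138 CPM. Libraries of both populations thus held much marker RNA of islet cells other than beta cells, whatever their label. In top this was mainly alpha marker RNA, while in bottom delta and pancreatic polypeptide markers were high as well. Gcg had the highest mean of the alpha markers over all libraries together. Intestinal epithelial markers set bottom 1 and bottom 2 apart, at 21481 and 5423 CPM, against 97.1 to 1440 CPM in the other 6 libraries. Duct markers stood at 565 to 894 CPM in top and 1202 to 1967 CPM in bottom (1 of 10 tested higher), acinar markers at 55.3 to 310 and 366 to 1787 CPM (1 of 11 higher), and stellate and fibroblast markers at 0.251 to 16.2 and 4.7 to 1361 CPM (2 of 4 higher). Endothelial markers stood at 0.124 to 8.26 CPM in top and 10.1 to 323 CPM in bottom, with the 1 tested marker not called. The part of these other cell types in the results that follow was not tested. In bulk libraries, fewer cells of a type and less RNA per cell cannot be told apart.

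Of the 33 members, 26 had enough counts to be tested, and 24 of these 26 had a negative log2 fold change, the fitted log2 difference of bottom from top. For 2 of these 24, Bbs1 and Tekt2, the mean CPM was nevertheless higher in bottom. That share compares with 49.9% of all 11721 tested genes, and the median log2 fold change was -0.53 over the 26 members and 0.00 over all tested genes. With Mns1 left aside, 23 of 25 were negative with a median of -0.43. None of these 25 passed the test over all genes (edgeR quasi-likelihood test, adjusted p under 0.05), a threshold that 0.444% of all tested genes passed. At an unadjusted p under 0.05 there were 3 of the 25, Ift81, Bbs4 and Ift88, all lower, where 4.63% of all genes were lower at that level and 10.3% differed in either direction. DESeq2 called 1 of the 25, Ift81, beside 5.03% of all genes, and limma-trend called 0, beside 1.17%. Across the 16 other ways of fitting, 18 to 24 of the 26 members were negative, but not always the same genes. Ift80 turned positive in 7 of these fits, and Ift74 and Tekt2 in 6 each. Ift43 and Ift52, positive above, turned negative in some. In the edgeR interaction of batch and population, 0 of the 25 were under an unadjusted p of 0.05, a level that 7.55% of all tested genes reached, and 0 genes passed after adjustment. Most members thus shared a direction in the edgeR fit, while no single one of these 25 passed the edgeR test. The families were chosen with earlier results of these data known. The shared direction therefore describes this set and was not tested.

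**Figure D1:**
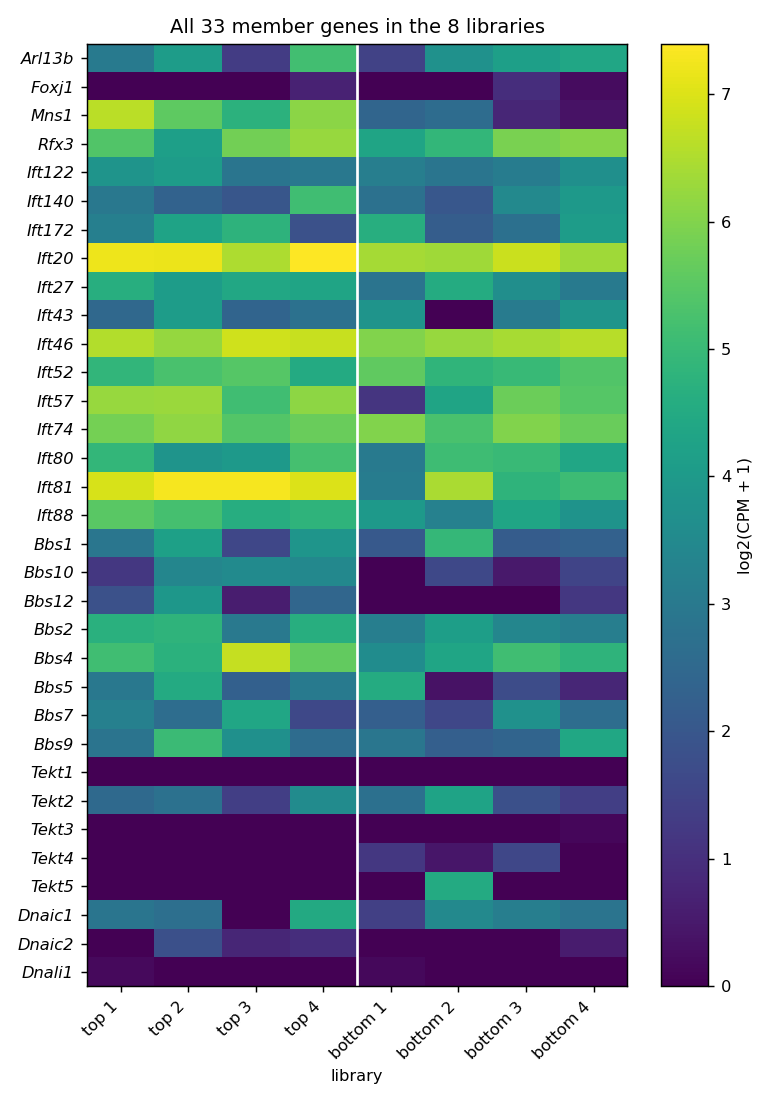
Level of each of the 33 member genes (rows) in each of the 8 libraries (columns), as log2(CPM + 1), with a white line between top and bottom. The tektins other than Tekt2, Foxj1, Dnali1 and Dnaic2 are dark in nearly every library, and the row of Mns1 turns from bright in top to dark in bottom.

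Mns1 encodes a coiled-coil protein of the axoneme that is needed for sperm tails and motile cilia. It stood at 97.5, 46.0, 25.8 and 67.5 CPM in top 1 to top 4 and at 4.37, 5.14, 0.737 and 0.278 CPM in bottom 1 to bottom 4. Every top library lay above every bottom library. The means were 59.2 ± 30.7 and 2.63 ± 2.48 CPM (SD, n = 4), a ratio of 22.5, and the edgeR log2 fold change was -5.10 (SE 0.80). These are the values for which the gene was chosen. The difference was -3.94 on the log2 scale in batch 1 and -6.48 in batch 2. In bottom 3 and bottom 4 the gene rested on 7 and 3 counts, so its level there is poorly fixed.

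Mns1 was set against insulin as well, a comparison chosen after the data were seen. Insulin transcripts (Ins1 and Ins2 together) made up 26.6% to 40.1% of counts in top and 2.75% to 7.16% in bottom. Mns1 counts per 1000000 insulin counts were 238, 97.5, 84.7 and 206 in top 1 to top 4. The bottom libraries, in the same order, had 155, 73.9, 19.97 and 4.78. On this scale bottom 1 lay inside the range of the top libraries and bottom 2 just below it, while bottom 3 and bottom 4 lay well below. The log2 ratio of the population means was -1.30 against insulin and -4.49 in CPM. Insulin was itself lower in bottom, with edgeR log2 fold changes of -2.76 for Ins1 and -2.99 for Ins2. Dividing by it raises bottom over top for any gene, so the smaller difference on this scale is not particular to Mns1. The bottom mean against insulin was 63.5, and 32.9 without bottom 1, which took the ratio to -2.25. Leaving out any other library gave ratios from -1.51 to -0.91. Within batch 1 the populations overlapped against insulin, and within batch 2 they did not.

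**Figure D2:**
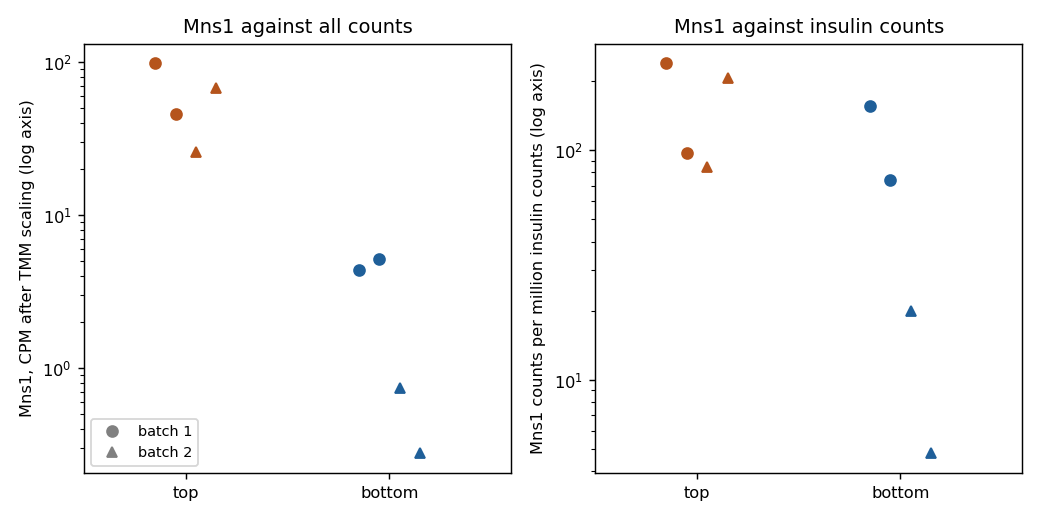
Mns1 in each library on log axes, in CPM (left) and as counts per 1000000 insulin counts (right). Circles are batch 1 and triangles batch 2. The populations are apart on the left, while on the right bottom 1, at 155, falls among the top libraries and the bottom libraries of batch 2 stay below at 19.97 and 4.78.

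In the GRCm38 annotation 7 of the 33 members overlap another protein-coding gene, and for Mns1 this is Tex9. No source used here states that counting took account of strand, and without it reads from a shared stretch cannot be told apart. Tex9 stood at 26.6, 32.02, 6.31 and 42.4 CPM in top and 9.29, 15.6, 38.9 and 8.34 CPM in bottom. Its populations overlapped, and its log2 fold change was -0.64 (SE 0.76, edgeR adjusted p = 0.864).

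RFX factors bind an X-box, an imperfect palindrome made of half-sites such as GTTGCC, and many cilium genes carry one near their start. Since most tested members shared a direction, their RefSeq promoters were searched on both strands, from 250 bases before to 50 after the start. Of the 33 members, 29 had an entry (not Foxj1, Ift122, Ift80 and Ift81), and 15 of these 29 (51.7%) held GTTGCC, as did 14.1% of the 27025 genes with a promoter in the table. The longer half-site GTTGCCNNGG was in 3 of 29, Bbs1, Bbs7 and Ift57, against 2.59% of all genes, and the looser GTTNCCNNGG in 6 of 29 against 7.15%. The full palindrome GTTNCCNNGGNAAC was in 1, Bbs7, against 0.529%. These 4 motifs overlap, so their counts are not separate findings. The forkhead motif GTAAACA, of the kind that Foxj1 binds, was in 1 of 29, Tekt3, against 4.05%. The median log2 fold change was -0.43 for the 11 tested members other than Mns1 that held GTTGCC and -0.63 for the 11 that did not. A match describes these letters only, and no binding was measured.

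The promoter of Mns1 is printed because the gene differed most. Those of Ift57 and Ift88 are printed because they are transport genes with lower fitted values that hold the half-site. That of Bbs7 is printed for the full palindrome in the form searched. Each runs from 130 bases before to 30 after the RefSeq start, read 5′ to 3′ along the gene in GRCm38.p6, whereas the deposited counts were made on mm9. Capitals mark GTTGCC or its reverse complement, and in Bbs7 the full palindrome. Mns1 lies at chr9:72438399-72438558 (+ strand), Ift88 at chr14:57423941-57424100 (+), Ift57 at chr16:49699164-49699323 (+) and Bbs7 at chr3:36613360-36613519 (- strand).
Mns1: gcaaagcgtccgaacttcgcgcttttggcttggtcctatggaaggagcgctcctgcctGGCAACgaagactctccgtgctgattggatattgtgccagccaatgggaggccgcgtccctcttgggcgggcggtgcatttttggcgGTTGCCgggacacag
Ift88: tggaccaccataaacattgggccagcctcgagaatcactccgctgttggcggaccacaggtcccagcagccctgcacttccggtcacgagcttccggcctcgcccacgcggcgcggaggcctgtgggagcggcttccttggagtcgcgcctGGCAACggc
Ift57: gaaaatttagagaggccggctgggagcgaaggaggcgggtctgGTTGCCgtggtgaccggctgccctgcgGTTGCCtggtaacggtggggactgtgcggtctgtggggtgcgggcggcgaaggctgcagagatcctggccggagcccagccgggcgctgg
Bbs7: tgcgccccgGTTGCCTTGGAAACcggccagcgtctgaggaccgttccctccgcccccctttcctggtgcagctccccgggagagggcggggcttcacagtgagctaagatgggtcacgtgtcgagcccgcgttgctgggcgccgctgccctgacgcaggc

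Among the 10 IFT-B genes, which build the train that enters the cilium, 9 had negative values, the median log2 fold change was -0.46 and none was called by edgeR. Ift81, which with Ift74 forms the part of the train that binds tubulin cargo, stood at 122, 157, 155 and 127 CPM in top and at 7.54, 86.1, 27.0 and 32.2 CPM in bottom. Each bottom library lay under each top one, which held for 3.91% of all tested genes. The means were 140 ± 18.2 and 38.2 ± 33.6 CPM (SD, n = 4), and the fitted log2 difference was -1.91 (SE 0.61, edgeR adjusted p = 0.282). DESeq2 gave an adjusted p of 0.0348. The bottom mean was 22.2 CPM without bottom 2, and the fitted value stayed between -2.93 and -1.60 when any 1 library was left out.

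Its partner Ift74 stood at 57.0, 71.4, 41.3 and 51.4 CPM in top and 62.8, 37.7, 62.3 and 50.8 CPM in bottom, for a fitted log2 difference of -0.03 (SE 0.35, edgeR adjusted p = 0.985). The populations overlapped throughout, and the sign of Ift74 turned with RLE scaling and with DESeq2 (0.02 in each). Lrrc19, which overlaps Ift74, stood at 3.88, 0.879, 6.68 and 3.02 CPM in top and 83.4, 14.3, 0 and 1.02 CPM in bottom. The part of Lrrc19 in the values of Ift74 was not tested. Whether Ift81 and Ift74 differ in their response was not tested.

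Ift88, a core subunit needed for any cilium to form, stood at 44.7, 36.3, 23.4 and 26.8 CPM in top and at 15.0, 8.60, 19.5 and 12.9 CPM in bottom. Again no bottom library reached the lowest top library, and the means were 32.8 ± 9.65 and 14.0 ± 4.53 CPM (SD, n = 4). The log2 fold change was -1.21 (SE 0.52, edgeR adjusted p = 0.466). Mns1, Ift81 and Ift88 were the 3 members whose populations did not overlap, so 2 of the 25 others, where 7.22% of all tested genes had no overlap in either direction.

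Ift57, a peripheral subunit, stood at 74.7, 77.5, 34.3 and 69.5 CPM in top and at 1.20, 19.0, 51.8 and 42.5 CPM in bottom. The batch 2 populations overlapped. The low values were those of bottom 1 and bottom 2, the libraries highest in intestinal markers and also the bottom libraries of batch 1. Within bottom these cannot be told apart, and their part in the values of Ift57 was not tested. Its log2 fold change was -1.52 (SE 0.89, edgeR adjusted p = 0.644), with -0.82 without bottom 1, -2.93 in batch 1 and -0.12 in batch 2, and the adjusted p of that batch difference was 0.73.

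The other 6 IFT-B subunits had fitted log2 differences from -0.77 to 0.16. Ift20, which also sits at the Golgi, averaged 137 ± 33.6 CPM in top and 88.5 ± 15.1 in bottom (SD, n = 4, fitted log2 difference -0.63, SE 0.30, edgeR adjusted p = 0.530). Ift46 averaged 97.2 ± 18.7 and 79.4 ± 14.3 CPM (-0.29, SE 0.27, edgeR adjusted p = 0.809), and its SD was 19.3% and 18.0% of the mean. Ift52 was 1 of the 2 tested members with a positive value, at 32.5 ± 9.32 and 36.4 ± 8.92 CPM (0.16, SE 0.42, edgeR adjusted p = 0.943). Ift27, Ift80 and Ift172 had log2 fold changes of -0.77, -0.02 and -0.20 with standard errors of 0.64, 0.63 and 0.93. The populations overlapped for all 6.

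IFT-A, the complex that brings the train back and admits membrane proteins, had 3 members, and their median log2 fold change was -0.23. Ift122 averaged 10.6 ± 4.77 CPM in top and 8.47 ± 2.42 in bottom, and Ift140 averaged 11.9 ± 14.6 and 8.41 ± 5.13 CPM (SD, n = 4). The top mean of Ift140 was 4.58 CPM without top 4. Ift43 averaged 7.62 ± 5.59 and 8.51 ± 6.30 CPM, had no count in bottom 2, and was the other member with a positive value (0.21, SE 1.34). Adjusted p in edgeR was at least 0.924 for all 3.

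**Figure D3:**
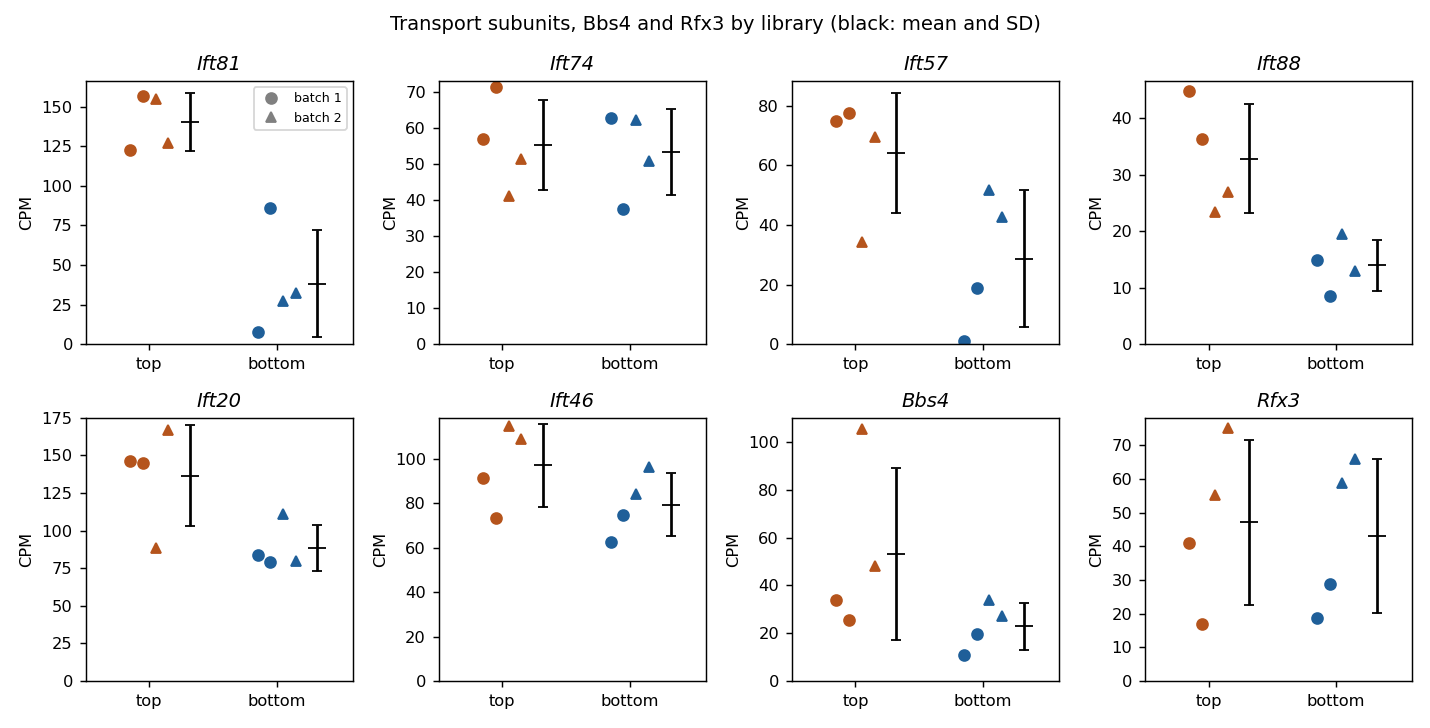
CPM of 6 IFT-B genes, Bbs4 and Rfx3 in each library, with the mean and SD of each population in black, circles for batch 1 and triangles for batch 2. Ift81 and Ift88 show no overlap between populations, Ift74 overlaps throughout, and Rfx3 is higher in the batch 2 libraries of bottom than in those of batch 1.

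All 8 Bardet-Biedl genes had negative values, with a median log2 fold change of -1.02, and none was called by edgeR, DESeq2 or limma-trend. Bbs4, a BBSome subunit that also binds pericentriolar proteins, was the 1 of them at an unadjusted p under 0.05. It stood at 34.0, 25.5, 106 and 48.1 CPM in top and at 11.03, 19.5, 33.8 and 27.1 CPM in bottom (fitted log2 difference -1.15, SE 0.43, edgeR adjusted p = 0.373). Top 2 lay below bottom 3 and bottom 4, so the populations overlapped.

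Bbs10 and Bbs12 encode chaperonin-like proteins that help to assemble the BBSome, and they had the lowest fitted values after Mns1. Bbs10 stood at 1.29, 9.42, 10.6 and 9.84 CPM in top and 0, 2.06, 0.421 and 1.85 CPM in bottom (fitted log2 difference -2.76, SE 1.31, edgeR adjusted p = 0.525). Bbs12 stood at 2.59, 14.1, 0.495 and 4.45 CPM in top, and in bottom it had counts only in bottom 4, at 1.30 CPM (fitted log2 difference -4.49, SE 2.13, edgeR adjusted p = 0.522). The fitted value of Bbs10 ran from -4.18 without bottom 2 to -2.21 without top 2, and that of Bbs12 from -8.66 without bottom 4 to -3.31 without bottom 2. Bbs12 had -9.19 in batch 1 and -1.88 in batch 2. Without bottom 4, and in batch 1, its bottom libraries were all at 0, so those fitted values depend on the prior count. In both genes 1 top library fell among the bottom ones. They rested on 232 and 162 counts in all top libraries together and on 46 and 14 in all bottom libraries. The top mean of Bbs12 was 5.40 CPM, and 2.51 CPM without top 2. Mkks, the third protein of that chaperonin group, averaged 43.4 ± 4.25 CPM in top and 42.1 ± 19.2 in bottom (SD, n = 4, fitted log2 difference -0.07, SE 0.43, edgeR adjusted p = 0.977), and it is outside the name pattern.

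The BBSome subunits Bbs1, Bbs2, Bbs5, Bbs7 and Bbs9 had log2 fold changes of -0.29, -0.95, -1.09, -0.79 and -0.70, with standard errors of 0.99, 0.64, 1.19, 0.92 and 1.00. Single libraries set several of their means. Bbs1 averaged 10.0 CPM in bottom and 3.51 without bottom 2, and its bottom mean lay above its top mean of 9.78 although its fitted value was negative. Bbs5 averaged 6.38 CPM in bottom and 1.11 without bottom 1. Bbs9 averaged 13.8 CPM in top and 7.75 without top 2, and 8.63 in bottom and 4.80 without bottom 4. Bbs7 averaged 8.90 CPM in top and 5.23 without top 3, and 5.82 in bottom and 3.65 without bottom 3. Bbs2 averaged 20.6 ± 9.22 and 10.5 ± 4.19 CPM (SD, n = 4), and its range in top, from 6.92 to 26.9, spanned that in bottom, from 7.87 to 16.6. None of these 5 genes is shown to differ.

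**Figure D4:**
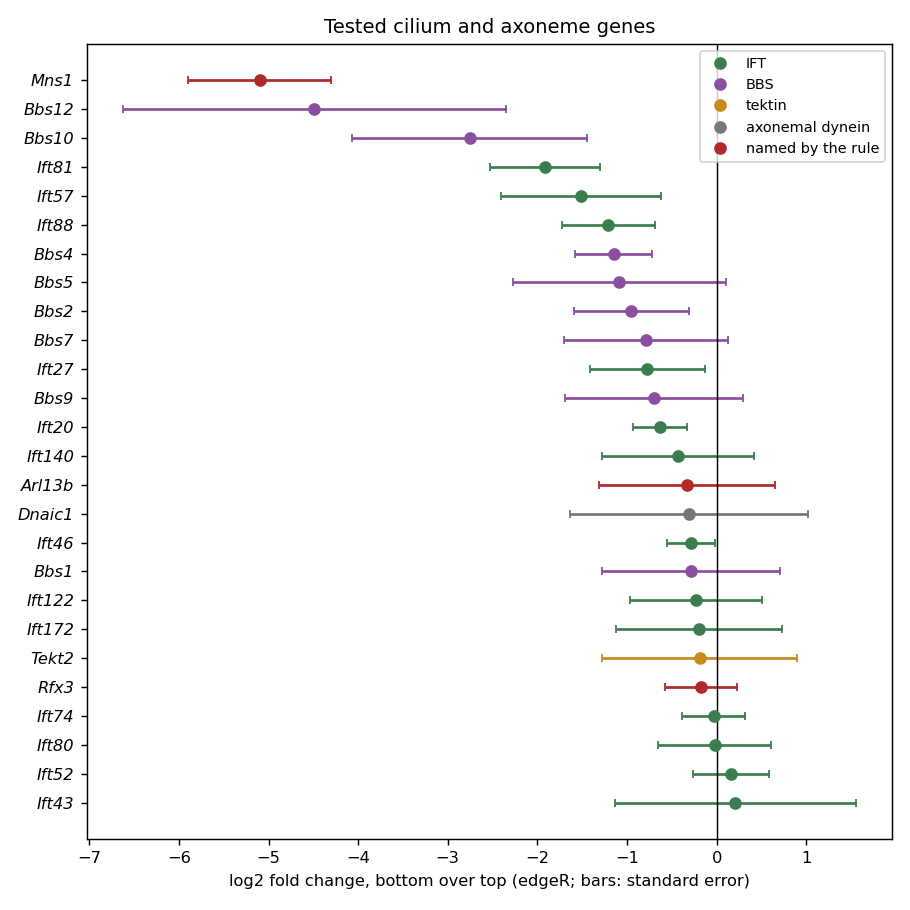
edgeR log2 fold change of bottom over top for the 26 tested members, with bars of 1 standard error, coloured by gene family, with Mns1, Arl13b and Rfx3 in red as genes named singly. The points of 24 genes lie left of 0, from -0.02 for Ift80 to -5.10 for Mns1, and those of Ift52 and Ift43 lie to the right.

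The tektin and axonemal dynein members were mostly at the limit of detection in both populations. Tekt1 had no count in any library, which allows a level of up to 0.0432 CPM over the 8 libraries at 3 counts, for counting error alone. Tekt3 had 1 count in all, Dnali1, an inner-arm dynein light chain, had 2 libraries with 1 count each, and Dnaic2, an outer-arm intermediate chain, reached 2.51 CPM at most. Tekt4 had 0 counts in top and stood at 1.31, 0.374, 2.00 and 0 CPM in bottom. Tekt5 had 0 counts in 7 libraries and 234 counts (21.9 CPM) in bottom 2. Among these genes, 2 passed the filter on low counts. Tekt2 averaged 5.73 ± 3.81 CPM in top and 7.05 ± 7.83 in bottom, 3.22 without bottom 2 (fitted log2 difference -0.19, SE 1.09, edgeR adjusted p = 0.976), so here too the fitted sign and the means differ. The dynein intermediate chain Dnaic1 averaged 8.36 ± 9.26 CPM in top, 3.95 without top 4, and 6.48 ± 3.62 in bottom (SD, n = 4, -0.31, SE 1.32, edgeR adjusted p = 0.966). The populations overlapped for both. Outside the members, 26 of 56 motile axoneme genes and 5 of 13 further axonemal dynein genes in the table passed the same filter.

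Foxj1, the master regulator of motile cilia, stood at 0.635 CPM in top 4, 0.948 in bottom 3 and 0.185 in bottom 4, and had no count in the other 5 libraries. Of the 14 multiciliated cell markers in the table, Tekt1 and Sntn were at 0 in all libraries, Hydin reached 1 count, and 8 were tested with none called by edgeR. Their summed level, 188 to 401 CPM in top and 224 to 402 CPM in bottom, was carried mainly by Fam183b. The highest library of each other tested marker stood at 38.2 CPM for Tppp3, 34.1 for Rsph1, 26.0 for Dnahc9 and 21.6 for Dnaic1. For Ccdc39, Ccdc40 and Ccdc113 it stood at 19.6, 19.4 and 12.8 CPM. Of the untested markers, Spag6 reached 10.5 CPM and Dnahc5 0.874 CPM. Of 12 spermatogenic markers 9 were at 0 in all libraries, and their sum was at most 4.11 CPM.

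Rfx3, an RFX factor that acts in ciliogenesis and in the development of islet endocrine cells, stood at 41.0, 16.9, 55.2 and 75.3 CPM in top and at 18.8, 28.9, 58.8 and 65.8 CPM in bottom. The libraries ordered by batch more than by population, with the batch 2 values above those of batch 1 in each population. Its fitted log2 difference was -0.17 (SE 0.40, edgeR adjusted p = 0.934). Arl13b, a GTPase of the ciliary membrane, averaged 14.7 ± 14.4 CPM in top and 12.7 ± 7.94 in bottom (SD, n = 4, -0.33, SE 0.98, edgeR adjusted p = 0.952), and its top mean was 8.17 without top 4. The other tested RFX genes, Rfx1, Rfx2, Rfx5, Rfx6 and Rfx7, had log2 fold changes of 0.43, 0.46, -0.25, 0.35 and 0.79, and edgeR adjusted p of at least 0.724. Rfx6, which directs islet cell development, averaged 65.3 ± 25.2 and 84.1 ± 59.2 CPM (SD, n = 4). Rfx4 had counts only in top 2, at 2.51 CPM, and Rfx8 had none.

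The remainder of the cilium machinery was read from 11 lists of genes outside the members, 215 genes in the table with 142 tested. None was called in either direction by edgeR, 11 were at an unadjusted p under 0.05 (3 higher, 8 lower), limma-trend called 0 and DESeq2 called 2. Over all tested genes the shares were 0.444% called by edgeR, 10.3% at an unadjusted p under 0.05, 1.17% called by limma-trend and 5.03% by DESeq2. Of the 142, 73 had negative and 69 positive values with a median of -0.02, against 24 and 2 among the tested members. The difference between the members and these lists was not tested. By list, negative values came in 9 of 11 tested transport motors, 3 of 10 transport subunits with other names, 6 of 9 further Bardet-Biedl genes, 10 of 23 transition zone genes, 13 of 19 basal body genes, 7 of 15 membrane traffic genes, 12 of 26 motile axoneme genes, 7 of 8 dynein assembly factors, 3 of 5 axonemal dyneins, 2 of 4 Hedgehog pathway and receptor genes and 1 of 12 RFX and multiciliation regulators.

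Of the 11 genes with the smallest p in their list, 9 were called by none of edgeR, DESeq2 and limma-trend. Dync2h1, the heavy chain of the motor that returns the train, averaged 101 ± 29.9 CPM in top and 50.1 ± 11.7 in bottom (SD, n = 4, fitted log2 difference -1.03, SE 0.35, edgeR adjusted p = 0.312). Wdr35, an IFT-A subunit, had a value of -1.81 (SE 0.96), Lztfl1, which regulates the BBSome, one of -0.88 (SE 0.32), and Sstr3, a somatostatin receptor that gathers in cilia, one of -1.07 (SE 0.56). Ccdc103, a dynein arm factor, had -2.43 (SE 1.06). Nek8 of the inversin compartment, Poc1a of the centriole, Unc119, which carries lipid-tailed proteins, and Rfxank of the MHC class II enhanceosome had positive values of 4.02, 3.84, 1.95 and 1.30, with standard errors of 1.92, 2.03, 0.80 and 0.92. Over these 9 genes the edgeR adjusted p ran from 0.312 for Dync2h1 to 0.721 for Rfxank. Single libraries moved several of them: Ccdc103 was at -1.20 without top 2, Wdr35 at -2.92 without bottom 1, Poc1a at 2.35 without bottom 4 and Rfxank at 0.57 without top 2.

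The 2 genes that DESeq2 called outside the members lay in opposite directions. Dnahc9, an outer-arm dynein heavy chain, stood at 3.16, 4.39, 2.35 and 2.86 CPM in top and at 10.5, 21.3, 26.0 and 25.0 CPM in bottom. All bottom libraries lay above all top ones (fitted log2 difference 2.67, SE 0.72, edgeR adjusted p = 0.193, DESeq2 adjusted p = 0.000772). Of all tested genes, 7.22% had no overlap in either direction. Dnahc9 was picked for the smallest p of its list, so its separation follows in part from that choice. Efhc2, a protein of the axonemal microtubule wall, stood at 14.0, 4.39, 32.9 and 0.635 CPM in top, and in bottom only bottom 3 had counts, at 0.948 CPM (-6.40, SE 1.86, edgeR adjusted p = 0.238, DESeq2 adjusted p = 0.00165).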

How the data were processed

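The deposited values were RSEM expected counts per gene, estimates of reads, 1 column per library, in a series table and in 1 table per library with the same values (largest difference 0). Libraries were made with SMARTer Ultra Low and Nextera XT kits, per the labels' protocols. Per the submitters' processing notes, RSEM, edgeR and the mm9 build were used; aligner, annotation and tool versions are not given in the sources used here. Of the values, 34.8% were not whole, and all were rounded before testing. Levels are CPM after TMM scaling. Genes passing filterByExpr (11721, with at least 98.01% of each library's counts) were tested with edgeR 4.0.16 in R 4.3.3, by the quasi-likelihood test with batch as covariate and Benjamini-Hochberg adjustment over all genes tested. SE is the size of the log2 fold change divided by the square root of F. The common biological coefficient of variation was 0.806. The script was tested on simulated data. DESeq2 1.42.0, limma-trend 3.58.1, RLE scaling, no filter, no batch term, each batch alone, omission of each library and a block were alternatives.

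Members, lists and tests were chosen with earlier results of these data known. Named genes were Mns1, Arl13b, Foxj1, Rfx3, called members, the 6 largest values each way, members without overlap, untested members with 10 counts in a library, RFX genes, and per list the called genes and that of smallest p. Other members are named to account for the set, and Mkks, Tex9, Fam183b and the zero markers were added after values were seen. Promoters were matched by symbol to the RefSeq table of GRCm38.p6. That annotation was used otherwise only for which genes overlap.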

Additional observations from a re-analysis of the deposited data

Results flagged for a closer look

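In each member and population the library farthest out was set against the others by Dixon's ratio, over 61 groups of 4 libraries with some spread. For normally distributed values chance flags about 1 in 20 groups. Levels near 0 are not so distributed, and a lone library with counts among libraries at 0 always gives a ratio of 1. The number marked can therefore not be read against that rate. The ratio marked 15 values. High ones in bottom were Bbs1 in bottom 2 (29.6 CPM, the next highest 3.89), Bbs5 in bottom 1 (22.2, next 2.32), Bbs9 in bottom 4 (20.1, next 6.45), Ift20 in bottom 3 (111, next 83.9) and Tekt5 in bottom 2 (21.9 CPM from 234 counts, the others 0). High ones in top were Ift140 in top 4 (33.7, next 6.76) and Ift43 in top 2 (15.9, next 5.72). Low ones in top were Bbs10 in top 1 (1.29, next 9.42) and Bbs2 in top 3 (6.92, next 24.0). The other 6 were lone libraries with counts in genes at 0 elsewhere in the population: Bbs12 in bottom 4 (1.30 CPM, 14 counts), Dnaic2 in bottom 4 (0.463), Dnali1 in top 1 (0.144) and in bottom 1 (0.109), Foxj1 in top 4 (0.635) and Tekt3 in bottom 4 (0.0927). Their causes were not tested.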

How the results depend on the processing

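Over all tested genes edgeR called 52, against 589 with DESeq2, 137 with limma-trend, 204 with all genes kept, 32 with batch left out of the model, 2 in batch 1 alone, 2 in batch 2 alone, and 8 to 60 when 1 library was left out. Members called numbered 1 (Mns1), 2 with DESeq2, 0 without the batch term and in either batch alone, and 0 to 1 when 1 library was left out. The contrast that chose Mns1 made that call, so its count describes the choice. Among the omissions, only that of bottom 1 kept it at 1. Mns1 had negative values throughout, from -5.66 to -4.60 when 1 library was left out. Against insulin, a scale chosen after seeing the data that raises bottom over top for any gene, its log2 ratio of means was -1.30. Without bottom 1 that ratio was -2.25. Members other than Mns1 called went from 0 to 1 with DESeq2, genes of the cilium lists from 0 to 2 with DESeq2, and genes with a batch interaction from 0 to 71 without the filter.

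Signs turned as follows (log2). With limma-trend: Arl13b 0.069, Dnaic1 0.61, Ift43 -0.67, Rfx1 -0.36. With RLE scaling: Ift74 0.023, Ift80 0.013. With DESeq2: Ift74 0.022, Ift80 0.014. Without the batch term: Bbs1 0.039, Tekt2 0.30. In batch 1 alone: Bbs1 0.44, Ift43 -0.68, Tekt2 1.17, Rfx2 -0.63. In batch 2 alone: Arl13b 0.046, Bbs9 0.52, Ift122 0.59, Ift74 0.30, Ift80 0.024, Rfxank -0.22. When 1 library was left out, values spanned -0.88 to 0.55 for Arl13b, -1.36 to 0.62 for Bbs1, -1.55 to 0.17 for Bbs9, -1.06 to 1.48 for Dnaic1, -0.52 to 0.048 for Ift122, -0.79 to 0.52 for Ift140, -0.98 to 0.74 for Ift172, -0.51 to 0.82 for Ift43, -0.019 to 0.37 for Ift52, -0.18 to 0.18 for Ift74, -0.56 to 0.27 for Ift80, -0.86 to 0.84 for Tekt2, -0.91 to 0.86 for Rfx1, -0.033 to 1.27 for Rfx2, -0.38 to 0.14 for Rfx3, -0.52 to 0.25 for Rfx5 and -0.38 to 0.65 for Rfx6. The causes were not tested.

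Library numbers in the titles were shared by 1 top and 1 bottom library in each batch, with correlations of their deviations of 0.0926 and -0.00134, and no label ties these libraries to one animal. Whether they are paired is not settled by 2 correlations. A fit with the replicate block called 0 genes and 0 members, and its signs turned for Arl13b (0.73), Bbs5 (0.51), Dnaic1 (1.98), Ift140 (0.77), Ift74 (0.37), Tekt2 (0.44), Rfx5 (0.66) and Rfx6 (-1.04). At 3 counts over the 8 libraries, a level under 0.0432 CPM could not be seen, which bounds Tekt1.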
